A study of Mus musculus with 9 samples.

Results

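The 10 genes described here handle dietary vitamin A and its carotenoid precursors: Bco1, Bco2, Rbp2, Lrat, Stra6, Rdh7, Dhrs3, Retsat, Aldh1a1 and Aldh1a2. They are 10 of the 18193 genes with a probe set annotated to a single symbol, and they had 12 such probe sets of 34945. The genes were chosen by symbol, with earlier results of these data known, so their counts beside the background are no independent evidence about the pathway. Where a gene had more than 1 probe set, the brightest over the 9 arrays was selected to stand for it. Retsat and Lrat had a second, dimmer probe set, which is given beside the first. The 10 probe sets had mean values of log2(signal + 16) between 6.84 for Stra6 and 14.55 for Rbp2, and all 10 lay above the limit of 6.80 that a probe set had to reach to be tested, Stra6 by little.

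Mucosal RNA of male C57Bl/6J mice, 9 weeks old when the feeding began, was measured after 2 weeks on 1 of 3 high-fat diets. The fat was palm oil in HF-PO, olive oil in HF-OO and safflower oil in HF-SO, with the P/S value of the labels lowest in HF-PO and highest in HF-SO. The small intestine was cut into 3 equal lengths, SI1 nearest the stomach, then SI2, then SI3 nearest the colon, and scraped after adhering fat and pancreas had been taken off. RNA of 6 mice was pooled for each diet and segment and put on 1 array, so each of the 9 arrays is a pool. Segments of the same diet share their mice, a segment has 3 pools that differ in diet, and a diet has 1 array per segment. No mouse is measured singly, all groups are high in fat, and a low-fat group was not analysed here. The values are MAS5 signals, a brightness per probe set scaled by the authors to the same trimmed mean of 500 on every array. Median signals per array were 94.4 to 105.9. The summed signal of 5 enterocyte markers (Vil1, Fabp2, Anpep, Alpi and Krt20) ran between 160713 and 172462 in SI3 and between 138341 and 169055 in SI1. The sum joins markers that moved in opposite directions. On the log2 scale, Anpep (0.64) and Fabp2 (0.31) were higher in SI3 and Alpi (-0.61) was lower, each at an adjusted p under 0.05 in limma's moderated test. Vil1 and Krt20 were not called, and over all probe sets tested 25.0% were higher and 19.2% lower. In pooled tissue, fewer cells of a type and less RNA per cell cannot be told apart.

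Vitamin A reaches the intestine as carotenoids from plants and as retinyl esters from animal foods. Enterocytes cleave beta-carotene to retinal, reduce retinal to retinol, bind retinol to a cytosolic protein and esterify it for export in chylomicrons. A smaller share is oxidised in the mucosa to retinoic acid, a hormone that acts through nuclear receptors and that also marks lymphocytes for homing to the gut. These steps are known to take place mainly in the upper small intestine.

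Promoter sequence from RefSeq (GRCm38.p6) is shown for Bco1, Rbp2 and Retsat, the 3 members whose signal in the HF-PO pool lay furthest from both other diets. Each line holds the 250 bases before the annotated start of transcription, on the strand of the gene. Capitals mark matches, on either strand, to any of 3 motifs. The first is AGGTCA, the core recognised by many nuclear receptors. The second is AGATAA, which is bound by GATA factors. The third is TTTATG, which is bound by caudal homeobox factors.
Bco1 (chr8:117095615-117095864, + strand): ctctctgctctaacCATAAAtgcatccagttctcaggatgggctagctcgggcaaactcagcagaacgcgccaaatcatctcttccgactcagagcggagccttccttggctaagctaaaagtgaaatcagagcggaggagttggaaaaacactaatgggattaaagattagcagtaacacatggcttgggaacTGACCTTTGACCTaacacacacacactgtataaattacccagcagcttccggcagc
Rbp2 (chr9:98490287-98490536, + strand): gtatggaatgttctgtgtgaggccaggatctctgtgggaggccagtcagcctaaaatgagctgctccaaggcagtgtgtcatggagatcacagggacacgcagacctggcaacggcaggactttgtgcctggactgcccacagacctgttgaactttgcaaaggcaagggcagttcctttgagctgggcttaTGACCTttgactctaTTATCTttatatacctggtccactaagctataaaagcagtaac
Retsat (chr6:72598352-72598601, + strand): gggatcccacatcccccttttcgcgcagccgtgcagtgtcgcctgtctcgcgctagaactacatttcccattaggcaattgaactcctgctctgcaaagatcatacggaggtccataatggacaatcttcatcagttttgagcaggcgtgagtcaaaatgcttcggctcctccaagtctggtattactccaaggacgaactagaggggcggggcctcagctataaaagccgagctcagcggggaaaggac
In the Bco1 window, the first capitals are a TTTATG match read on the opposite strand, and the second capitals are a pair of AGGTCA matches on the opposite strand with 1 base between them, at bases -56 to -44 from the start. Such a pair with a gap of 1 occurred in 11 of 32851 promoter windows of the same length in the table (0.0335%). In the Rbp2 window, the capitals are 1 AGGTCA match at bases -58 to -53 and 1 AGATAA match at bases -43 to -38, both on the opposite strand. The Retsat window held none of these motifs. All 10 genes had a window, 18 in all. AGGTCA was found in 3 of these 18 windows (1 each of Bco1, Rbp2 and Rdh7) and in 14.0% of all windows. AGATAA was found in 3 of the 18 (1 each of Aldh1a1, Rbp2 and Stra6) and in 9.99% of all, and TTTATG in 2 of the 18 (Bco1 and Rdh7) and in 10.8% of all. Pairs of AGGTCA with 2 or with 5 bases between occurred in 3 windows each (0.00913%), and no member window was among them. A match is a description of letters and no evidence of binding. Bco2, Stra6, Aldh1a2 and Rbp2 all lie on chromosome 9 of that build, and the other members lie on chromosomes of their own.

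Along the intestine, 9 of the 10 genes were lower in SI3 than in SI1 and 1, Stra6, was higher, each at an adjusted p under 0.05 in limma's moderated test with the diet pool as a block. The Stra6 call depends on the filter for dim probe sets, which Stra6 passed through its SI3 pools: with no filter its adjusted p was 0.0901. Over all 22519 probe sets tested, 19.2% were lower and 25.0% higher by the same rule. The median log2 difference of SI3 minus SI1 was -1.02 over the members and 0.08 over all probe sets tested. The members' step lay mostly between SI2 and SI3: there 9 of 10 were lower in SI3 (background 10.8% lower, 10.4% higher), with a median of -0.90 over the members against 0.03 over all. Between SI2 and SI1 the median was -0.11 over the members against 0.03 over all, and 1 member, Bco2, was lower in SI2 (background 6.92% lower, 8.07% higher). Over all 3 segments together, limma's moderated F test called 9 of 10 members, all but Stra6, against 40.7% of all probe sets. The F test count depended on the setting. It was 6 with no filter, 6 without HF-OO, 7 without HF-SO and 9 without HF-PO. With the second probe set of Retsat and Lrat it was 8. All 10 were called with 64 added before taking logs, with arrays centred on their medians, or with a trended variance. With fewer pools the SI3 against SI2 calls dropped to 6 of 10 without HF-PO, 5 without HF-OO and 3 without HF-SO, and the SI2 against SI1 calls to 0 without any 1 pool. With no filter on dim probe sets, 4 of 10 were called for SI3 against SI2 and 0 for SI2 against SI1. The SI3 against SI2 calls lost in that setting were those of Rbp2 (adjusted p = 0.0964), Lrat (0.134), Dhrs3 (0.11), Aldh1a1 (0.0505) and Aldh1a2 (0.0736), and for Bco2 in SI2 against SI1 it was 0.167.

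**Figure D1:**
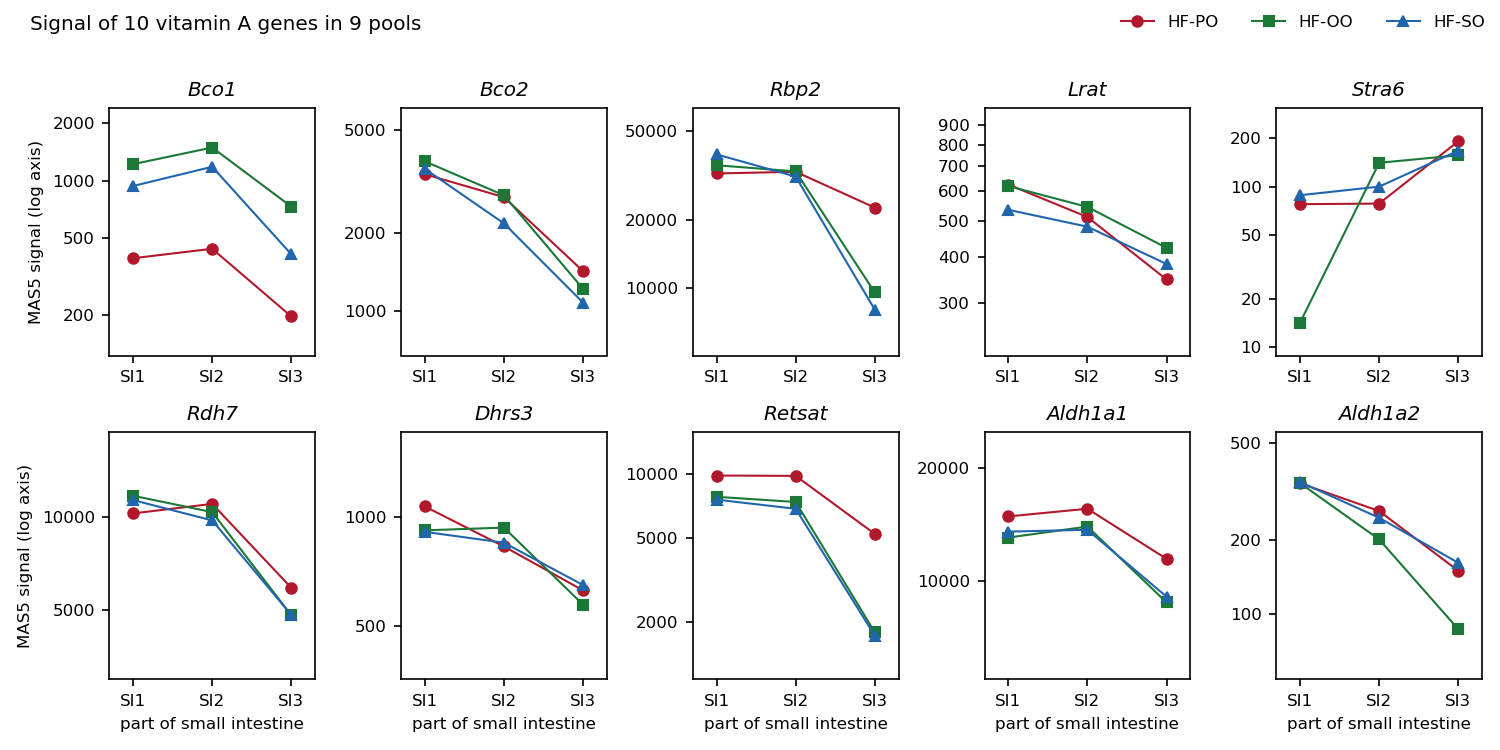
MAS5 signal (log axis, scaled per panel) of the 10 genes in SI1, SI2 and SI3, with 1 point per pool and a line joining the 3 segments of a diet. The panels of 9 genes end lowest in SI3; Bco1 has its HF-PO line below the other diets throughout, and Rbp2 and Retsat have their HF-PO point well above the others in SI3.

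Bco1 cleaves beta-carotene in the middle to give retinal, the entry of provitamin A carotenoids into the pathway. Its signal in SI1 was 394.1 with HF-PO, 1224.2 with HF-OO and 941.0 with HF-SO. In SI2 it was 441.7 with HF-PO, 1496.5 with HF-OO and 1186.2 with HF-SO, and in SI3 it was 195.3 with HF-PO, 733.5 with HF-OO and 413.0 with HF-SO. Within each diet the order was the same, with SI2 highest and SI3 lowest, but the segments' ranges overlapped, and the HF-PO pool was the lowest in every segment. On the log2 scale, SI3 minus SI1 was -0.95 (SE 0.11, adjusted p = 0.000774, limma, lower in 3 of 3 pools) and SI3 minus SI2 was -1.20 (SE 0.11, adjusted p = 0.000817). Both calls rest on comparing segments within a diet: without the diet pool as a block the adjusted p was 0.221 for SI3 minus SI1 and 0.177 for SI3 minus SI2. SI2 minus SI1 was 0.26 (SE 0.11, adjusted p = 0.171), positive in 3 of 3 pools.

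Bco2, the mitochondrial enzyme that cleaves carotenoids off centre, stepped down at each segment. Its signals were 3380.5, 3788.7 and 3545.9 in SI1 with HF-PO, HF-OO and HF-SO, 2754.7, 2801.7 and 2181.8 in SI2, and 1426.8, 1219.3 and 1078.5 in SI3, in the same order of diets. No pool of one segment reached the range of another. The log2 difference of SI3 minus SI1 was -1.52 (SE 0.12, adjusted p = 0.0001, limma) and SI3 minus SI2 was -1.05 (SE 0.12, adjusted p = 0.00143). SI2 minus SI1 was -0.47 (SE 0.12, adjusted p = 0.0368), a call that was lost without the HF-PO pool (adjusted p = 0.0742), without the HF-OO pool (0.162) and without the HF-SO pool (0.195). Bco1 and Bco2 thus differed between SI2 and SI1 in the sign of their estimates, in 3 of 3 pools each, a contrast between the genes that was not tested.

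Rbp2, the enterocyte protein that holds retinol and retinal and presents them to the enzymes, was bright in every pool, at up to 73.6% of the highest signal of its array, where an array may no longer respond in proportion. In SI1 it had 32364.4 with HF-PO, 35212.5 with HF-OO and 39352.8 with HF-SO, and in SI2 32933.6, 33050.5 and 31350.9 in the same order. In SI3 it had 22810.2 with HF-PO, 9565.5 with HF-OO and 8021.7 with HF-SO. All 3 SI3 pools lay below all SI1 and SI2 pools, but the distance depended on the diet. SI3 minus SI1 was -0.50 within HF-PO, -1.88 within HF-OO and -2.29 within HF-SO, with a fitted mean of -1.56 (SE 0.32, adjusted p = 0.00711, limma). The call did not hold without HF-OO (-1.40, adjusted p = 0.067) or without HF-SO (-1.19, adjusted p = 0.0601). SI3 minus SI2 was -1.43 (SE 0.32, adjusted p = 0.0208), also not called without HF-OO (adjusted p = 0.159) or without HF-SO (0.114).

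Lrat, which esterifies retinol bound to Rbp2, was less steep. Its signals were 624.7, 618.7 and 534.3 in SI1 with HF-PO, HF-OO and HF-SO, 511.1, 543.9 and 481.4 in SI2, and 347.4, 422.4 and 382.2 in SI3. The SI3 pools lay below every SI1 and SI2 pool, while SI1 and SI2 overlapped. Between SI3 and SI1 the difference was -0.61 (SE 0.10, adjusted p = 0.00243, limma) and SI3 minus SI2 was -0.40 (SE 0.10, adjusted p = 0.0256). The call against SI2 was lost without any 1 pool: the adjusted p was 0.0996 without HF-PO, 0.148 without HF-OO and 0.101 without HF-SO. A second, dimmer Lrat probe set, with signals of 92.6 to 140.7, had a difference of -0.15 for SI3 minus SI1 (SE 0.16, adjusted p = 0.485), so the decline is seen by 1 of the 2 probe sets.

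Stra6, the membrane receptor that takes up retinol from circulating retinol-binding protein, was dim in every pool and the 1 member that was higher distally. Its signals were 77.8, 14.2 and 88.5 in SI1 with HF-PO, HF-OO and HF-SO, 78.5, 140.9 and 100.1 in SI2, and 191.9, 156.9 and 167.6 in SI3. All SI3 pools exceeded all SI1 and SI2 pools, and the HF-OO pool of SI1 stood far below the rest. The difference of SI3 minus SI1 was 1.49 (SE 0.43, adjusted p = 0.0267, limma), with 1.15 within HF-PO, 2.52 within HF-OO and 0.81 within HF-SO. On its SI1 and SI2 pools alone its mean would lie below the limit of 6.80, and with no filter the adjusted p was 0.0901. Without the HF-PO pool the adjusted p was 0.0731 and without HF-SO 0.0579, while without HF-OO the difference was 0.98 and still called. SI3 minus SI2 was 0.65 (SE 0.43, adjusted p = 0.323), and was called without HF-OO (0.90, adjusted p = 0.0404). Fits with a pool left out kept the filter set on all 9 arrays, which Stra6 passed through its SI3 pools. The calls without HF-OO are therefore no separate support for a rise.

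Rdh7, a mouse short-chain dehydrogenase that oxidises retinol and some steroids, had overlapping pools in SI1 and SI2 and lower ones in SI3. It had 10237.6, 11661.8 and 11295.2 in SI1 with HF-PO, HF-OO and HF-SO, 10981.3, 10333.6 and 9717.8 in SI2, and 5908.4, 4820.8 and 4838.0 in SI3. SI3 minus SI1 was -0.79 within HF-PO, -1.27 within HF-OO and -1.22 within HF-SO, with a fitted mean of -1.09 (SE 0.11, adjusted p = 0.00038, limma). The difference of SI3 minus SI2 was -1.0 (SE 0.11, adjusted p = 0.00154). Rdh7 has close relatives whose transcripts share sequence. Of these, Rdh9 was higher in SI3, by 1.09 (SE 0.09, adjusted p = 0.000134), and averaged 6826.2 ± 497.6 in SI3 and 3186.8 ± 142.0 in SI1 (SD, n = 3 pools). Rdh16 was higher by 0.54 (SE 0.11, adjusted p = 0.00703), Rdh1 was too dim to be tested, and cross-hybridisation between them was not tested.

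Dhrs3, which reduces retinal back to retinol and is induced by retinoic acid, had 1066.8, 917.3 and 908.7 in SI1 with HF-PO, HF-OO and HF-SO. It had 828.4, 933.4 and 848.4 in SI2 and 627.7, 573.4 and 649.3 in SI3. The SI3 pools lay below the others and SI1 and SI2 overlapped. Dhrs3 thus differed by -0.63 between SI3 and SI1 (SE 0.11, adjusted p = 0.00329, limma) and by -0.49 between SI3 and SI2 (SE 0.11, adjusted p = 0.0199). The call against SI2 was lost without HF-PO (adjusted p = 0.061), without HF-OO (0.169) and without HF-SO (0.0854).

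Retsat saturates a double bond of retinol to give dihydroretinol. It had 9785.2 with HF-PO, 7773.4 with HF-OO and 7540.4 with HF-SO in SI1, and 9750.0, 7352.7 and 6828.1 in SI2 in the same order. In SI3 it had 5204.8 with HF-PO, 1795.7 with HF-OO and 1732.5 with HF-SO. The SI3 pools lay below all others, and HF-PO was the highest diet in each segment. SI3 minus SI1 was -0.91 within HF-PO, -2.10 within HF-OO and -2.11 within HF-SO, with a fitted mean of -1.71 (SE 0.25, adjusted p = 0.00167, limma). SI3 minus SI2 was -1.63 (SE 0.25, adjusted p = 0.00504), not called without HF-OO (adjusted p = 0.0634) or without HF-SO (0.0581). The second Retsat probe set gave -1.81 for SI3 minus SI1 (SE 0.21, adjusted p = 0.000638) and had signals of 1403.0 with HF-PO, 434.5 with HF-OO and 469.6 with HF-SO in SI3.

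Aldh1a1 and Aldh1a2 oxidise retinal to retinoic acid, the first in many epithelia and the second also in stromal cells and some dendritic cells of the gut. Aldh1a1 had 14832.0, 13030.7 and 13515.1 in SI1 with HF-PO, HF-OO and HF-SO, 15550.5, 13940.5 and 13667.3 in SI2, and 11435.9, 8754.4 and 9067.7 in SI3. The SI3 pools lay below the others, while SI1 and SI2 overlapped. Its difference of SI3 minus SI1 was the smallest in size among the 10 members, at -0.51 (SE 0.09, adjusted p = 0.00349, limma) and SI3 minus SI2 was -0.57 (SE 0.09, adjusted p = 0.00528). The call against SI2 was lost without HF-OO (adjusted p = 0.0852) and without HF-SO (0.0605). Aldh1a7, whose sequence is close to Aldh1a1, differed by -0.03 between SI3 and SI1 (SE 0.11, adjusted p = 0.814).

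Aldh1a2 was nearly equal among the SI1 pools, at 340.8 with HF-PO, 341.4 with HF-OO and 344.9 with HF-SO. It had 262.4, 200.9 and 246.2 in SI2 and 149.5, 86.3 and 161.2 in SI3, in the same order of diets. No pool of one segment reached the range of another. SI3 minus SI1 was -1.31 (SE 0.15, adjusted p = 0.000684, limma), SI3 minus SI2 was -0.80 (SE 0.15, adjusted p = 0.0125) and SI2 minus SI1 was -0.51 (SE 0.15, adjusted p = 0.0661). The call of SI3 against SI2 was lost without HF-PO (adjusted p = 0.0723) and without HF-SO (0.0531).

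Markers of cells other than enterocytes also differed between SI3 and SI1, for which the background was 19.2% lower and 25.0% higher. Of 6 fibroblast markers, 5 were tested and 4 were lower in SI3, with a summed signal of 1657 to 2035 in SI3 and 5452 to 6043 in SI1. Both dendritic cell markers that could be tested, Itgax and Batf3, were lower in SI3. The sum of the 6 measured ones lay between 529.0 and 547.7 in SI3 and between 1125 and 1443 in SI1. Batf3 was dim, at 130.5 to 182.0 in SI1, 99.3 to 141.8 in SI2 and 44.7 to 70.8 in SI3. It passed the filter for dim probe sets only through its SI1 pools, which favoured a lower call in SI3. The Batf3 call is therefore no separate support for a decline. Itgax was bright enough to be tested without its SI1 pools. Macrophage markers were lower for 4 of 5, and their sum was 1725 to 1902 in SI3 and 5501 to 5793 in SI1. Their part in the decline of Aldh1a2 was not tested. All 5 goblet cell markers and all 4 Paneth cell markers were higher in SI3, with Paneth sums of 89975 to 106461 in SI3 and 28425 to 37576 in SI1. No measured marker of these lists stayed below a signal of 16 on all 9 arrays.

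**Figure D2:**
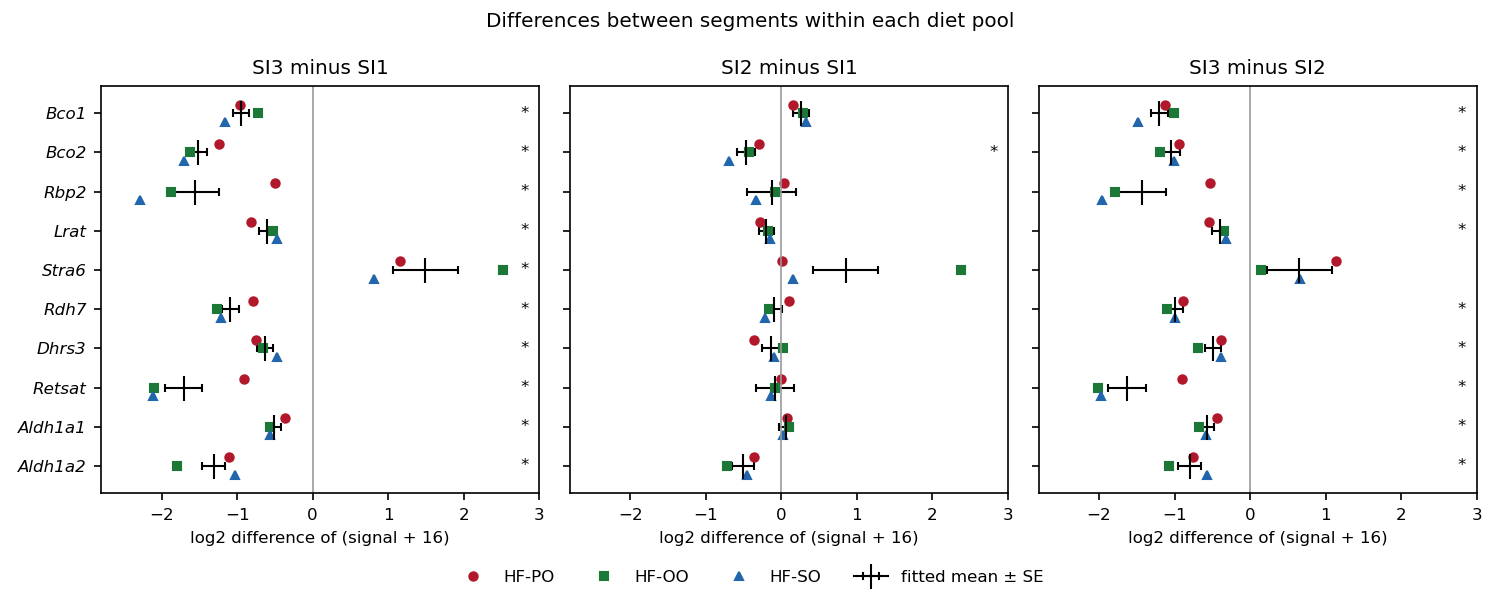
Log2 differences of (signal + 16) between segments for the 10 genes: coloured points are the differences within each diet pool, black bars the fitted mean ± SE, and an asterisk marks an adjusted p under 0.05. The HF-PO points of Rbp2 (-0.50) and Retsat (-0.91) lie to the right of the other diets for SI3 minus SI1, and SI2 minus SI1 has 1 asterisk, for Bco2.

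Other genes of the pathway were taken from 9 lists that leave out the 10 members. Of 56 genes 50 were measured and 41 tested, of which 19 were lower and 9 higher in SI3 than in SI1 (background 19.2% and 25.0%), with a median of -0.19 against 0.08 over all probe sets. All 3 genes of carotenoid uptake and its control changed. Scarb1, the receptor that takes up carotenoids, averaged 122.4 ± 1.4 in SI3 and 1830.5 ± 190.3 in SI1 (SD, n = 3 pools), a difference of -3.73 (SE 0.13, adjusted p = 5.24e-06, limma). Cd36, a fatty acid and carotenoid transporter, differed by -2.07 (SE 0.13, adjusted p = 4.04e-05). Isx, the intestinal homeobox repressor of Bco1 and Scarb1 in mice, was higher by 0.71 (SE 0.09, adjusted p = 0.000937), at 3619.1 ± 211.0 in SI3 and 2205.3 ± 183.0 in SI1.

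Among 3 tested hydrolases of retinyl esters, 2 were higher and 1 lower in SI3 (background 25.0% higher, 19.2% lower). Plb1, the brush border phospholipase with retinyl ester hydrolase activity, averaged 11761.7 ± 1448.3 in SI3 and 12.3 ± 5.9 in SI1, a difference of 8.71 (SE 0.16, adjusted p = 5.6e-07, limma). Its SI1 signals were about as low as the 16 added before taking logs, so the size of that difference depends on the number added. Pnliprp2, a relative of pancreatic lipase, was higher by 1.38 (SE 0.15, adjusted p = 0.000481). Cel, the bile salt-dependent lipase of the pancreas, averaged 69.7 ± 28.7 in SI3 and 3433.8 ± 568.9 in SI1, a difference of -5.38 (SE 0.26, adjusted p = 1.8e-05). All 6 measured exocrine pancreas markers were lower in SI3 as well (background 19.2% lower). Their sums were 205.6 to 446.4 in SI3 and 26966 to 34925 in SI1, and their part in the Cel difference was not tested. Among them, Cpa1 had 3585.2 to 4944.1 in SI1, 2.4 to 4.0 in SI2 and 3.5 to 10.8 in SI3. Cel and Cpa1 passed the filter for dim probe sets only through their SI1 pools. The filter thus favoured lower calls for such genes, and setting these calls beside the background says little.

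Of 14 tested oxidoreductases of retinol and retinal, 8 were lower and 2, Rdh9 and Rdh16, higher in SI3 (background 19.2% lower, 25.0% higher). Adh1, an alcohol dehydrogenase that also oxidises retinol, averaged 2930.2 ± 728.7 in SI3 and 23501.8 ± 1913.5 in SI1 (difference -3.02, SE 0.16, adjusted p = 2.6e-05, limma). Adh4 differed by -3.62 (SE 0.17, adjusted p = 1.8e-05), Adh7 by -1.50 (SE 0.22, adjusted p = 0.00166) and Rdh10, which forms retinal from retinol, by -1.01 (SE 0.13, adjusted p = 0.00115). In SI2, Adh1 averaged 20490.9 ± 1266.0. Aldh1a3, the third retinal dehydrogenase, averaged 145.8 ± 45.2 in SI3 and 1137.7 ± 47.4 in SI1, a difference of -2.87 (SE 0.21, adjusted p = 8.93e-05).

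Of 6 genes of retinyl ester formation and export, 3 were lower and 2 higher in SI3 (background 19.2% lower, 25.0% higher). Apob, the coat protein of chylomicrons, differed by -1.15 (SE 0.09, adjusted p = 0.000131, limma). Abca1, a cholesterol exporter, was higher by 1.40 (SE 0.23, adjusted p = 0.00305). Its SI1 pools were uneven, at 949.5 with HF-PO, 2690.9 with HF-OO and 940.4 with HF-SO, so the rise was smallest within HF-OO. In SI3 it had 3477.9, 4157.5 and 3163.9 in the same order. Binding and transport proteins were split, 1 higher and 1 lower of 5 tested, and 0 of 4 tested retinoic acid receptors were called by limma, with 0 at an unadjusted p under 0.05 and a median of 0.14. The lowest adjusted p among them was 0.128, for Rxra. Genes known to be induced by retinoic acid did not move one way: 2 of 5 tested were higher and 3 lower. Tgm2, a transglutaminase, was higher by 1.01 (SE 0.12, adjusted p = 0.000765) and Ccr9, a gut-homing receptor of lymphocytes, lower by a difference of -1.10 (SE 0.18, adjusted p = 0.00292). The 4 tested T cell markers were all lower in SI3, with sums of 1457 to 2466 in SI3 and 4283 to 6533 in SI1, and their part in the Ccr9 difference was not tested.

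**Figure D3:**
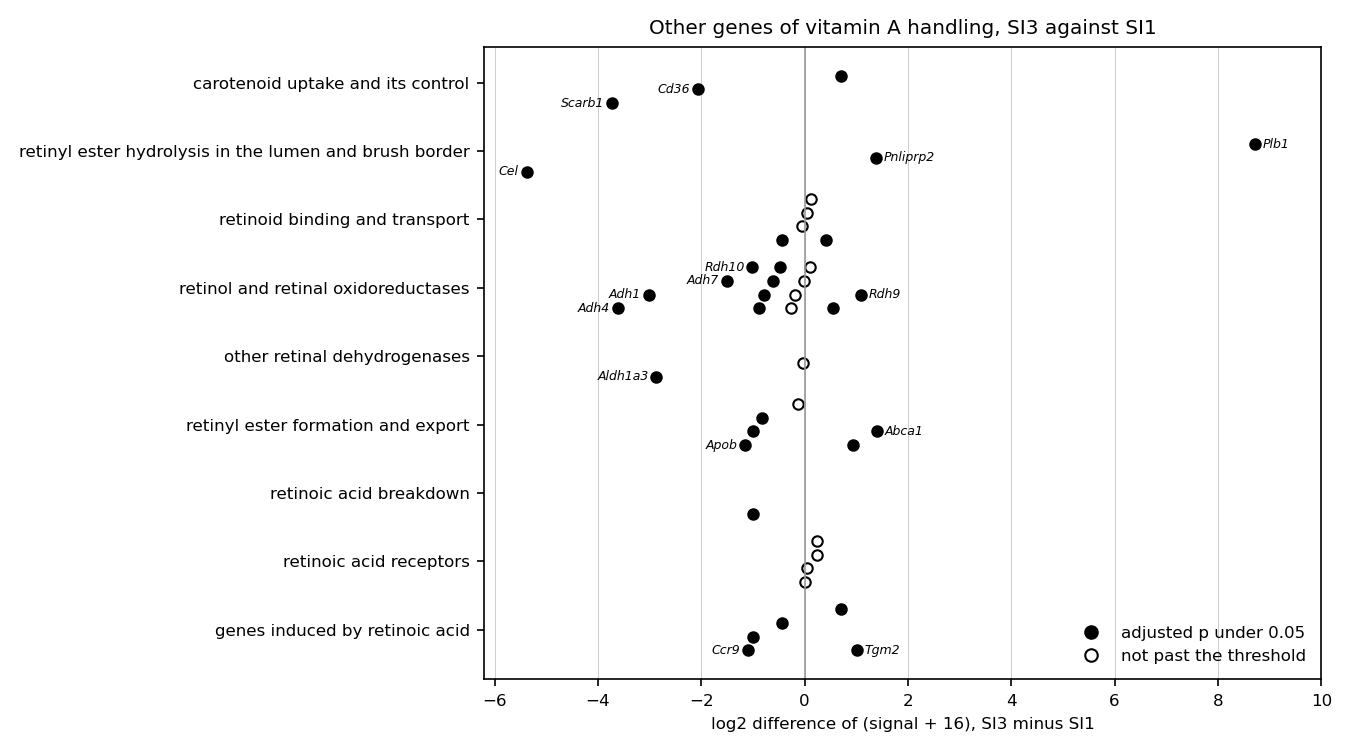
Log2 differences of (signal + 16), SI3 minus SI1, for the tested genes of 9 pathway lists; filled points passed an adjusted p under 0.05, and those of at least 1 in size are named. Isx and Cyp26b1 are on 2 lists each; Plb1 (8.71) and Cel (-5.38) lie at the ends, and the receptors lie near 0.

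Diets cannot be tested here, since each has 1 array per segment, so their differences are described by size. A member was called low or high with a diet where its (signal + 16) was 1.5-fold or more below both other diets, or 1.5-fold or more above both. Over the 90 combinations of member, segment and diet, 8 met that rule, 4 of them in Bco1, and 6 met it at 2-fold. For each segment, diet and direction, 0.413% to 1.65% of all probe sets tested met it at 1.5-fold. These shares are for 1 direction, while the 8 combinations count either direction, so the count and the shares are not directly comparable. No share over all probe sets is given for the 2-fold rule. In SI1, Bco1 was low with HF-PO (background 1.23% of probe sets) and Stra6 was low with HF-OO (background 0.861%). In SI2, Bco1 was low with HF-PO (background 1.19%). In SI3, Bco1 was low with HF-PO (background 1.65%) and high with HF-OO (0.653%), Rbp2 and Retsat were high with HF-PO (0.888%), and Aldh1a2 was low with HF-OO (1.07%). At 2-fold, Bco1 was no longer high with HF-OO in SI3, nor Aldh1a2 low.

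The Bco1 signal with HF-PO was 0.322 times that with HF-OO in SI1, 0.295 times in SI2 and 0.266 times in SI3. Against HF-SO it was 0.419 times in SI1, 0.372 times in SI2 and 0.473 times in SI3. HF-SO was also below HF-OO in all 3 segments, so the order of the diets was the same in each. Being low with HF-PO in all 3 segments was rare: 5 of 22519 probe sets (0.0222%) met that, among them Bco1, Fkbp5 and Rad54l2, but the 3 segments are of the same 6 mice and count as 1 pool. Isx, the repressor named above, had 2179.0 for HF-PO, 2400.0 for HF-OO and 2036.8 for HF-SO in SI1, and 2714.2, 2853.1 and 2374.7 in SI2 in the same order. In SI3 it had 3858.3 for HF-PO, 3539.8 for HF-OO and 3459.2 for HF-SO.

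Rbp2 and Retsat shared a different pattern, in which HF-PO lay above the other diets in SI3. It was not particular to them: 200 of 22519 probe sets tested (0.888%) were high with HF-PO in SI3. Apoc2, the gene most like Rbp2 over the 9 arrays, had 19984.8 with HF-PO, 7920.7 with HF-OO and 4789.9 with HF-SO in SI3. In SI1, Apoc2 had 34772.2, 36988.9 and 41003.3 in the same order, with HF-PO lowest as for Rbp2. The Rbp2 signal of SI3 with HF-PO was 2.38 times that with HF-OO and 2.84 times that with HF-SO, while in SI1 it was 0.919 and 0.822 times these diets. The Retsat signal of SI3 with HF-PO was 2.90 times that with HF-OO and 3.00 times that with HF-SO, and in SI1 it was already 1.26 and 1.30 times these. Aldh1a1 was also higher with HF-PO than with both other diets in 3 of 3 segments, but by at most 0.38 on the log2 scale. In SI3, Cd36 had 674.5 with HF-PO, 405.6 with HF-OO and 382.9 with HF-SO. Unlike Rbp2, Cd36 was highest with HF-PO in the other segments too. In the same order of diets it had 2412.3, 2062.9 and 1674.9 in SI1 and 3749.9, 3169.7 and 3071.9 in SI2.

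Among the other members, the largest log2 difference between any 2 diets in any segment was 0.40 for Bco2, 0.29 for Rdh7, 0.27 for Lrat and 0.23 for Dhrs3. Aldh1a2 reached 0.79 in SI3, where HF-OO was the low diet, and was within 0.02 in SI1. Stra6 reached 1.79 in SI1, through the HF-OO signal of 14.2, but its diets lay within 0.27 of one another in SI3.

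**Figure D4:**
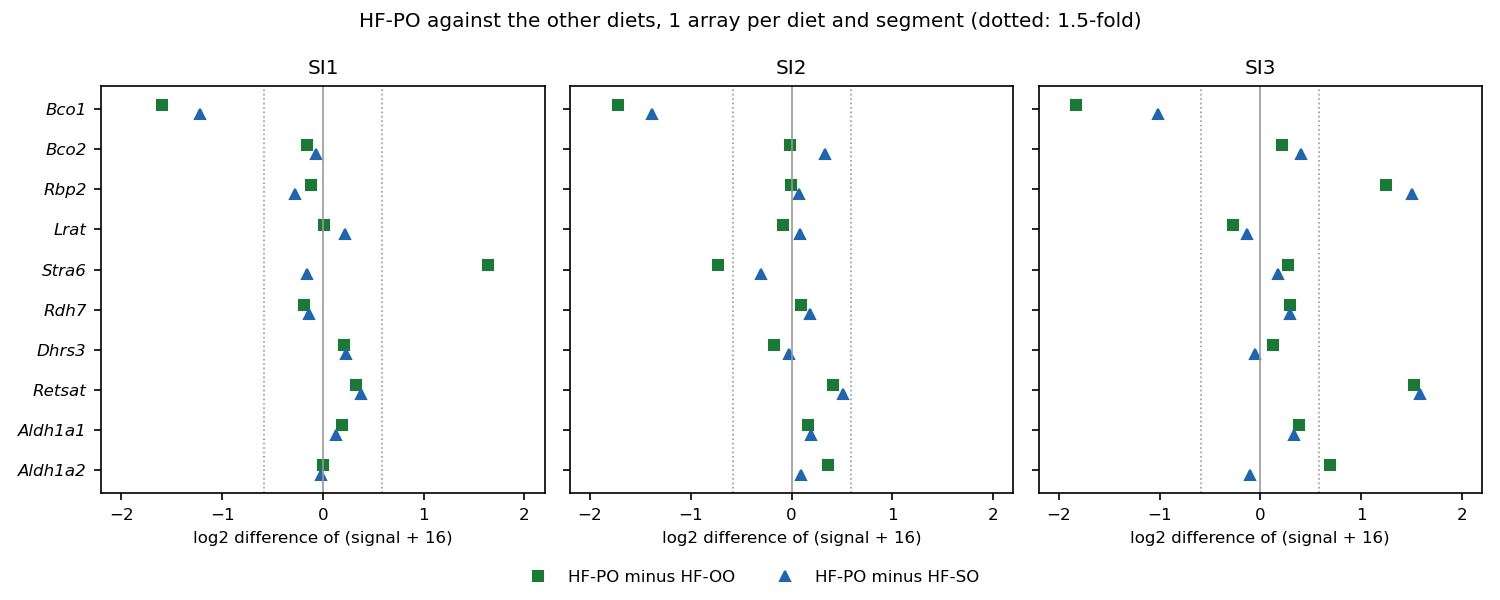
Log2 differences of (signal + 16) of HF-PO minus HF-OO and HF-PO minus HF-SO for the 10 genes in SI1, SI2 and SI3, with 1 array per diet and segment and dotted lines at 1.5-fold. Bco1 lies left of the dotted line in all 3 segments (-1.60, -1.72 and -1.83 against HF-OO), and Rbp2 and Retsat lie right of it in SI3.

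For each member, the genes with the most similar pattern were found by Pearson's r of log2(signal + 16) over the 9 arrays, among 10977 genes whose brightest probe set was tested. These values are descriptions over arrays that share mice and segments. The closest to Bco1 was Rad54l2 (r = 0.916, the weakest best match among the members), then Septin10 (0.912). Rad54l2 had 214.0 with HF-PO, 375.0 with HF-OO and 357.8 with HF-SO in SI1. Closest to Bco2 were D5Ertd579e (0.997) and Gosr2 (0.994), and closest to Rdh7 were Cda (0.999) and Sco2 (0.996).

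Rbp2 was most like Apoc2 (r = 0.995), an apolipoprotein that activates lipoprotein lipase, and Tmem219 (0.993). Retsat was most like Pdk4 (0.995), the kinase that holds back pyruvate dehydrogenase when fat is burnt, and Ccdc114 (0.990). Lrat was most like Endog (0.985) and Ltbp2 (0.984), and Dhrs3 was most like Phlpp1 (0.989) and Ankmy2 (0.980). Aldh1a1 was most like Slc25a11 (0.989) and Sec14l2 (0.986). Aldh1a2 was most like Ednrb (0.992), an endothelin receptor, and Sfrp1 (0.988), a secreted Wnt antagonist, and Stra6 was most like Zfp282 (0.985) and Cfp (0.982).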

How the data were processed

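Each of the 9 arrays measured the pooled mucosal RNA of 6 mice. The authors deposited linear signal intensity, credited to MAS5 in the submitters' processing notes with no version, and the 2% trimmed mean of each array is 500. Of 45101 probe sets, 64 array controls were left out. Names came from the platform annotation, matched to a RefSeq gene table: 34945 probe sets had 1 symbol, 932 several and 9160 none, and probe sets without a single symbol are unnamed here. Detection calls were not used here.

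Signals were analysed as log2(signal + 16), so differences of dim genes are understated. Probe sets with a mean at or above the median of all (6.80), 22519 in number, were fitted with limma 3.58.1 in R 4.3.3, with segment and diet pool as terms, since a diet's segments share mice, 4 residual degrees of freedom and two-sided moderated tests. Benjamini-Hochberg adjustment ran over all of them, and an adjusted p under 0.05 was a call. The spread is that between 3 pools that differ in diet, so a diet's effect on the segment difference is part of the error. The number of arrays limits the precision, and saturation of bright probe sets could not be checked. For the diets no p was computed.

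The members and gene lists were chosen with earlier results of these data known, so their calls are no independent evidence about the pathway. Named genes are all members, listed pathway genes called in SI3 minus SI1 with a difference of at least 1, listed relatives of members that could share sequence, and the 2 most similar genes per member. Isx was named also for its levels, as were Cd36 and Fkbp5 in the diets, chosen after their values were seen; so was Rxra. Markers of cell types are named from fixed lists, and a plot caption names Cyp26b1 as it stands on 2 lists. Promoters were the RefSeq windows of GRCm38.p6. Alternatives were other pseudocounts (1 and 64), no filter, other scalings, no diet block, a trended variance, the second probe set and leaving out each diet pool. Tables and plots were made in Python 3.11.15 with pandas 2.3.3, numpy 2.4.6 and matplotlib 3.10.9.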

Additional observations from a re-analysis of the deposited data

Results flagged for a closer look

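Rbp2 differed in how HF-PO compared with the other diets between segments: on the log2 scale, HF-PO stood at 1.38 relative to the average of both other diets in SI3 and at -0.20 in SI1. HF-PO was above both other diets in SI3 and below both in SI1, and with 1 array per diet and segment the difference was not tested.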

How the results depend on the processing

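Of 303 values of a member, a comparison and an alternative setting, 268 kept their direction and side of the threshold, 33 lost a call, 2 gained one, and 0 changed sign. For SI3 minus SI1, 8 to 10 of 10 members were called in every setting run, against 10 as reported, and 8 to 9 with 1 pool left out. Stra6 was not called without the filter (adjusted p = 0.0901) and fell below the filter with a pseudocount of 1, which left it untested. For SI2 minus SI1, 1 member was called as reported, 2 with a pseudocount of 64 (Aldh1a2 added, adjusted p = 0.0386), 0 with no filter and 0 without any 1 pool. For SI3 minus SI2, 9 were called as reported, 4 with no filter and 3 to 6 with 1 pool left out (6 without HF-PO, 5 without HF-OO, 3 without HF-SO). Leaving out a pool lowers the residual degrees of freedom, and without the filter p-values are adjusted over 45037 probe sets. Rbp2 in SI3 minus SI2 had an adjusted p of 0.0544 with a trended variance.

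Without the diet pool as a block, Bco1 lost its calls in SI3 minus SI1 and SI3 minus SI2, as given with its values; the counts were then 9 members for SI3 minus SI1, 1 for SI2 minus SI1 and 8 for SI3 minus SI2, and no other member's call changed. Centring each array on its median moved the median difference of all probe sets for SI3 minus SI1 to 0.11, against 0.08, and kept all 10 members called. Over all probe sets, 9969 were called in SI3 minus SI1, 6768 with no filter and 5551 to 7581 with 1 pool left out. In SI2 minus SI1 3375 were called, 604 with no filter and 537 to 811 with 1 pool left out. In SI3 minus SI2 4787 were called, 1681 with no filter and 1317 to 2394 with 1 pool left out. Of the other pathway genes, 28 were called in SI3 minus SI1 and 23 to 29 in the settings run. Dim signals limit Stra6 and the second Lrat probe set.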
